A study of Homo sapiens with 8 samples.

Results

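Genes that encode 10 subunits of the machinery which cuts and polyadenylates nascent messenger RNA were followed across the 4 groups of an RNA-seq experiment in PC3 cells. The 10 genes are CPSF1, CPSF2, CPSF3, CPSF4, CPSF6, CSTF1, CSTF2, CSTF3, PCF11 and NUDT21, each taken by an exact match of its gene symbol, and all 10 were present among the 17010 genes of the count table. The match by symbol used no measured value, but the 10 genes were chosen with earlier results of these data known. PC3, a long-established line from a human prostate cancer, was grown here under 3D conditions in plates of 24 wells with 1 mL of medium holding 3% serum. In the siRNA arm, cells received SF3B2 siRNA or control siRNA and were kept for 72 h. In the drug arm, cells received pladienolide B at 0.5 µM for 24 h or DMSO, the solvent control, for a time that the sources do not give. Each group had 2 libraries. SF3B2 belongs to the SF3b complex of the U2 snRNP, which recognises the branch point in an intron, and pladienolide B binds SF3b and blocks splicing. The labels do not say whether libraries of 1 group were grown as separate cultures. A p-value is thus set against the spread within the 4 pairs of libraries, pooled in 1 fit, and that spread may be technical.

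Polyadenylation couples an endonucleolytic cut in the nascent RNA to the addition of a poly(A) tail. The cleavage and polyadenylation specificity factor (CPSF) reads the polyadenylation signal and makes the cut, the cleavage stimulation factor (CstF) binds U- or GU-rich RNA downstream of it, cleavage factor I (CFIm) binds UGUA elements upstream, and cleavage factor II (CFIIm) joins cleavage to the release of RNA polymerase II. Splicing of the last intron and cleavage at the 3′ end are known to be coupled, and contacts between CPSF and SF3b have been described. The libraries were made from RNA selected for poly(A) tails, so a transcript is counted only after the reaction that these factors carry out.

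Total counts ran from 48246180 to 72983584 in the 6 libraries without drug and were 41504101 and 35461248 with pladienolide B. The median count per gene was 871 to 1399.5 in the 6 libraries and 227 and 223.5 with the drug. Values are given as CPM, the share of a library's reads scaled by the trimmed mean of M values, unless TPM, a share of transcripts per length, is named. The targeted gene SF3B2 stood at 228 and 228 CPM with control siRNA and at 36.4 and 30.1 CPM with SF3B2 siRNA, a log2 fold change of −2.78 ± 0.24 (SE, n = 2 against 2) with an edgeR adjusted p of 0.0513, just over the threshold of 0.05, and a DESeq2 adjusted p of 1.40e-24. All 8 epithelial and PC3 markers were measured, with a summed level of 2451 to 3637 CPM in the 6 libraries without drug and 769 and 739 CPM with pladienolide B, and all 8 were called lower, from ITGA6 at a log2 fold change of −2.85 to EPCAM at −0.62 (edgeR adjusted p = 0.0359). The call of EPCAM was lost in 7 of 15 alternatives, among them relative log expression scaling (adjusted p = 0.0859), only the 2 groups in the fit (0.114), without either control siRNA library (0.0693 and 0.0696), without either DMSO library (0.0737 and 0.197) and without the first drug library (0.0639). Of 17 markers of other cell types or of genes PC3 cells lack or express little, 11 were not among the listed genes, PTPRC, CD3E, VWF and KLK3 among them, and the other 6 summed to 161 to 196 CPM without drug and to 115 and 195 CPM with it. Of these 6, 1 was called higher and 2 lower. CD14, a monocyte marker, was the highest, at 0.407 to 1.007 CPM without drug and 50.5 and 54.5 CPM with it, a log2 fold change of 5.85 ± 0.38 (edgeR adjusted p = 1.90e-05). PECAM1, an endothelial marker, was the lowest, at 25.6 to 39.7 CPM without drug and 6.33 and 1.66 CPM with it (log2 fold change −3.16 ± 0.52, edgeR adjusted p = 0.000971). The part of either marker list in the results was not tested. The drug libraries are bulk samples, in which fewer cells and less RNA per cell cannot be told apart.

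The promoters of PCF11, CSTF1 and CPSF3 are shown first, because PCF11 and CSTF1 had the highest and CPSF3 the lowest log2 fold change with the drug among the 10. Each run is 300 bases of RefSeq sequence (GRCh38.p14), a window around the annotated start with most of its length upstream, written 5′ to 3′ along the gene's strand. PCF11 is at chr11:83156881-83157180 on the plus strand, CSTF1 at chr20:56392129-56392428 on the plus strand and CPSF3 at chr2:9423404-9423703 on the plus strand. Capitals mark matches, on either strand, to the SP1 motif GGGCGG, the NFY motif ATTGG or the ETS motif CCGGAAG.
PCF11: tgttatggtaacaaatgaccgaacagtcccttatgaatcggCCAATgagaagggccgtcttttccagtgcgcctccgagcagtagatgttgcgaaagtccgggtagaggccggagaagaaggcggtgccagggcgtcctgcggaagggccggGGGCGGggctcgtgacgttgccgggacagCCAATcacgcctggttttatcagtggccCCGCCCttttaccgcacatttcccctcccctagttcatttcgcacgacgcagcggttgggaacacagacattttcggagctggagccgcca
CSTF1: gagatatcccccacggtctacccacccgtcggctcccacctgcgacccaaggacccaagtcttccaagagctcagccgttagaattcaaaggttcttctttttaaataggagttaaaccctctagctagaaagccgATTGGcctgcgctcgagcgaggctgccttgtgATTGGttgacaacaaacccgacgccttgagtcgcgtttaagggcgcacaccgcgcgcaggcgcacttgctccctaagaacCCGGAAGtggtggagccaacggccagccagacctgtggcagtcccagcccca
CPSF3: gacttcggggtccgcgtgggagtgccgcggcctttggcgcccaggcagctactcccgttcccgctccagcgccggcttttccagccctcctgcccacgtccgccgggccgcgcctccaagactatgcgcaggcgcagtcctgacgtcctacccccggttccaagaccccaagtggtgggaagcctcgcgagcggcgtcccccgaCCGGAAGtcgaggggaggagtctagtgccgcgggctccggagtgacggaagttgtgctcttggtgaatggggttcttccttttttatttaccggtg
The PCF11 window held 2 SP1 and 2 NFY matches, the CSTF1 window 1 ETS and 2 NFY matches, and the CPSF3 window 1 ETS match. Among the 9 genes with a promoter in the table, 11 windows in all, 5 held an ETS match (CPSF3, CSTF1, CSTF2, CSTF3 and NUDT21), against 10.3% of 35116 promoters. The YY1 motif ATGGCG was in 4 genes (10.7% of promoters), the SP1 motif in 6 (45.0%) and the NFY motif in 7 (34.6%). No window of the 9 genes held TATAAA (11.5% of promoters), the AP-1 motif TGANTCA (7.71%) or the NRF1 motif GCATGCG (3.91%). The motifs did not separate members called higher from those called lower with the drug. CPSF4, called lower, held SP1 and NFY matches as PCF11 did. ETS matches were in CSTF1 and CSTF3, called higher, and in CPSF3 and CSTF2, called lower. A match describes letters, not binding.

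Before any drug, the 10 genes differed widely in level per length. In DMSO, CPSF1, the large scaffold of CPSF, led at 138 ± 2.71 TPM (SD, n = 2), and its lower library was above the higher library of every other member. CPSF4 at 41.2 ± 3.29 TPM and NUDT21 at 39.3 ± 0.287 TPM came next with overlapping ranges, and CPSF3 at 33.5 ± 2.29 TPM was below them. From CPSF3 down through CSTF1 (30.6 ± 5.77 TPM), CPSF6 (24.2 ± 3.90 TPM), CSTF3 (21.7 ± 5.84 TPM), PCF11 (16.0 ± 2.31 TPM) and CSTF2 (14.8 ± 0.488 TPM), each neighbour overlapped the next. CPSF2, at 10.5 ± 0.457 TPM, was the lowest and did not overlap CSTF2. The order in both siRNA groups was the same but for CPSF3 and CSTF1, which changed places there with overlapping libraries. Summed over the 10 genes, the level was 332 to 389 TPM in the 6 libraries without drug.

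No change of the 10 genes was detected after SF3B2 siRNA. None was called against control siRNA by edgeR, none had an unadjusted p under 0.05, and DESeq2 gave the same 0 and 0. The background was also near empty, with 0% of 16488 genes called by edgeR, 638 at an unadjusted p under 0.05, and 33 called by DESeq2. As the targeted SF3B2 itself was not called by edgeR, the lack of a call does not show the lack of a change. Log2 fold changes of the members ran from −0.18 ± 0.20 (SE) for CSTF2 to 0.07 ± 0.19 for CPSF3, and each adjusted p was 1.00. PCF11, the gene that moved furthest with the drug, read 44.4 and 46.9 CPM with control siRNA and 35.3 and 50.4 CPM with SF3B2 siRNA, so that the depleted libraries lay on both sides of the controls. Its log2 fold change was −0.09 with a 95% interval of −0.76 to 0.57. CPSF3, the endonuclease, read 24.1 and 25.2 CPM in the controls and 26.6 and 25.2 CPM after depletion, an interval of −0.36 to 0.51. The depleted libraries did not overlap the controls for 3 of 10 members, CPSF3, CSTF2 and NUDT21, against 39.1% of all tested genes. The widest of the 10 unadjusted intervals was that of CPSF1, from −0.89 to 0.88. Control siRNA and DMSO, which differ in transfection and may differ in time, also gave no call among the 10 members (edgeR 0% of all genes, 152 unadjusted, DESeq2 0 called and 159 unadjusted), with log2 differences from −0.25 for CPSF3 to 0.20 for CPSF1.

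**Figure D1:**
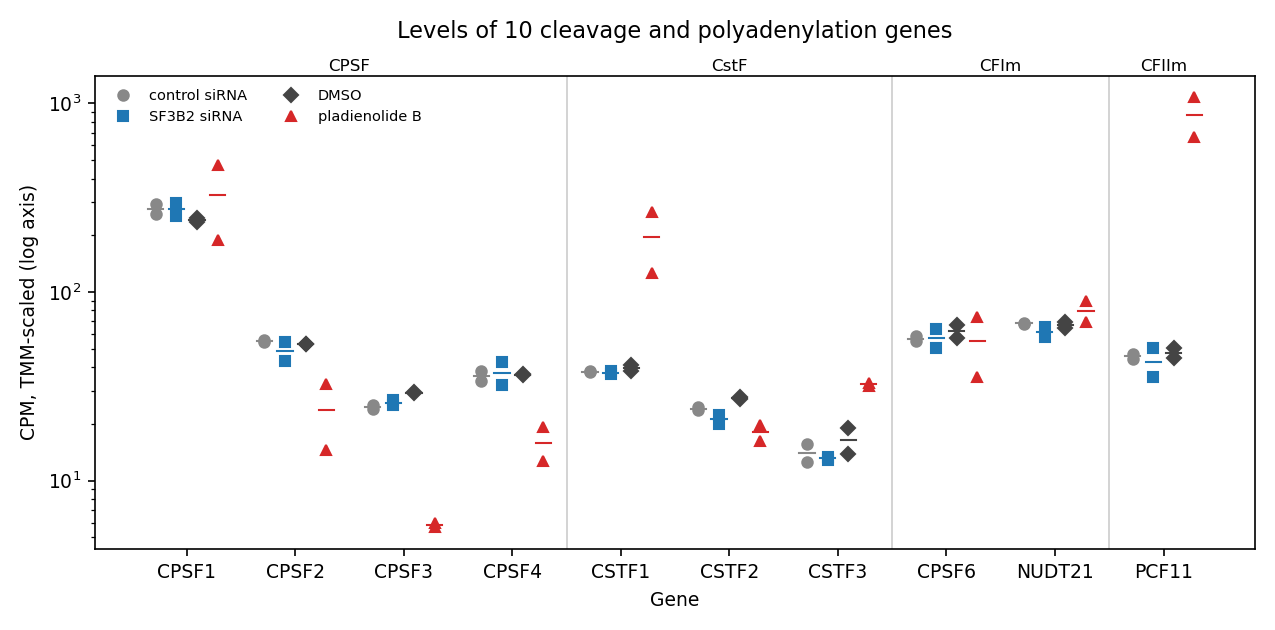
Level of each of the 10 genes in the 8 libraries, in CPM scaled by the trimmed mean of M values on a log axis, with a point per library and the group means. The control siRNA, SF3B2 siRNA and DMSO libraries of a gene lie close together, while with pladienolide B PCF11 reaches 1079 and 662 CPM and CPSF3 drops to 5.95 and 5.66 CPM.

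Pladienolide B moved members of the machinery in both directions. Of the 10 genes, 7 were called against DMSO by edgeR, 3 of them higher (PCF11, CSTF1, CSTF3) and 4 lower (CPSF3, CPSF4, CPSF2, CSTF2), and 3 were not called (CPSF1, CPSF6, NUDT21). The background was 68% of 16488 genes called, 32.5% higher and 35.5% lower, so the members' share is close to that of all genes. With only the 2 groups in the fit 5 members were called, beside 9655 of all genes. Under library size alone 8 were called, beside 11759 of all genes. Leaving out some of the single libraries also changed both numbers. The median log2 fold change of the 10 genes was 0.03, beside −0.11 over all tested genes. Both drug libraries lay above all 6 others for 4 members, CSTF1, CSTF3, NUDT21 and PCF11 (34.8% of all genes), and below all 6 for 4, CPSF2, CPSF3, CPSF4 and CSTF2 (39.7%). Members of each of the 4 complexes are described in turn.

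Among the members that belong to CPSF, the 3 called were all lower. This does not hold for every gene that acts with them. WDR33, which binds the polyadenylation signal with CPSF4 but is not among the members, was called higher (log2 fold change 1.88, edgeR adjusted p = 0.000474). CPSF3, the zinc-dependent nuclease that makes the cut, has 17 introns at chr2:9423651-9473101 on the plus strand (GRCh38, GENCODE 44). It stood at 29.0 and 29.7 CPM with DMSO and at 5.95 and 5.66 CPM with pladienolide B. Both drug libraries were far below the lowest of the other 6, which was 24.1 CPM, and they were close to each other. The log2 fold change was −2.34 ± 0.20 (SE, n = 2 against 2), a 5.05-fold lower level, with an edgeR adjusted p of 4.05e-05. This rested on few reads, the count in the second drug library being 133, the lowest of any member.

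CPSF4, a zinc finger subunit that binds the polyadenylation signal together with WDR33, read 36.3 and 36.6 CPM with DMSO and 19.2 and 12.7 CPM with the drug. Both drug libraries were below the lowest of the 6 libraries without drug, 32.0 CPM. Its log2 fold change was −1.19 ± 0.26 (edgeR adjusted p = 0.00434). CPSF4, at chr7:99438922-99457373 on the plus strand with 7 introns, lies wholly opposite PTCD1, which rose with a log2 fold change of 3.09. It shares 0 exonic bases with PTCD1 and 157 with the readthrough gene ATP5MF-PTCD1, and the strand setting of the counting is not known, so its level is uncertain to that extent. CPSF2, the catalytically inactive relative and partner of CPSF3, has 15 introns at chr14:92121969-92172145 on the plus strand. It read 53.2 and 52.9 CPM with DMSO and 14.6 and 32.7 CPM with the drug, lower in both libraries but unequally so. The log2 fold change was −1.17 ± 0.35 (edgeR adjusted p = 0.0186). It lost the call when the fit held only the drug and DMSO groups (adjusted p = 0.0579) and without either DMSO library (0.0611 and 0.0609), and its value was −0.71 without the first drug library and −1.88 without the second.

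CPSF1 runs on the minus strand over chr8:144393229-144409335 with 37 introns. It read 247 and 236 CPM with DMSO and 188 and 470 CPM with pladienolide B, the drug libraries standing on opposite sides of all 6 others. The 2 drug libraries differed by 1.32 on the log2 scale, more than for any other member. The log2 fold change of 0.44 ± 0.38 was not called (edgeR adjusted p = 0.326), and it depended on the library. Without the first drug library it was 0.95 (adjusted p = 0.00241), without the second −0.37 (0.106), and scaling by library size alone gave −0.41.

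CstF gave changes in both directions within a complex of 3 subunits. CSTF1, a WD40-repeat subunit, lies at chr20:56392371-56406362 on the plus strand with 5 introns. It read 38.1 and 41.0 CPM with DMSO and 126 and 266 CPM with pladienolide B. The other 4 libraries were between 36.7 and 38.0 CPM, so the lower drug library was still above every library without drug. The log2 fold change was 2.31 ± 0.34, or 4.96-fold, with an edgeR adjusted p of 0.000504. It was 1.67 without the second drug library and 2.75 without the first.

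CSTF3, the subunit that bridges the other subunits, read 13.9 and 18.95 CPM with DMSO and 32.0 and 32.9 CPM with the drug. The drug libraries were nearly equal and above the other 6, of which DMSO 2 was the highest. The log2 fold change was 0.98 ± 0.24 (edgeR adjusted p = 0.00641), but it was 0.11 and not called under library size alone (adjusted p = 0.718) and 0.76 without the first DMSO library (0.0750). The annotation puts 392 exonic bases of CSTF3 (chr11:33077188-33162371, minus strand) opposite TCP11L1.

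CSTF2, the subunit whose RNA recognition motif binds the downstream element, read 27.3 and 27.8 CPM with DMSO and 16.3 and 19.8 CPM with pladienolide B. The gap to the SF3B2 siRNA libraries, at 20.1 and 22.4 CPM, was small. Its log2 fold change was −0.61 ± 0.20 (edgeR adjusted p = 0.0285). This call was lost under relative log expression scaling (−0.45, adjusted p = 0.0775), with only the 2 groups in the fit (0.106), without either control siRNA library (0.0653 and 0.0654) and without either DMSO library (0.109 and 0.125). Its paralog CSTF2T, an intronless gene at chr10:51695486-51699595 on the minus strand, inside PRKG1, went the other way. CSTF2T read 46.2 and 46.7 CPM with DMSO and 388 and 427 CPM with the drug, a log2 fold change of 3.13 ± 0.20 or 8.77-fold (edgeR adjusted p = 1.85e-05). The pair encodes similar proteins and reads may be shared between them. In TPM, CSTF2T was 1.94 to 2.48 times CSTF2 in the 6 libraries without drug and 19.7 and 21.4 times with it, a ratio that needs no scaling between libraries.

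In CFIm, neither subunit was called. NUDT21, which recognises UGUA, read 69.0 and 64.9 CPM with DMSO and 69.2 and 89.4 CPM with pladienolide B. The first drug library was barely above the highest of the others, and the log2 fold change was 0.24 ± 0.20 with an interval of −0.22 to 0.71 (edgeR adjusted p = 0.311). Under library size alone the sign turned, to −0.62 with a call (adjusted p = 0.0310), and without the first drug library it was 0.41 with a call in the higher direction (0.0426). NUDT21 shares 2724 exonic bases, 45.9% of its exonic length, on the same strand with an unnamed protein-coding gene of the annotation, so that its count is uncertain. CPSF6, the partner of NUDT21 in CFIm, read 57.3 and 66.7 CPM with DMSO and 35.5 and 74.2 CPM with the drug, below and above the rest. Its log2 fold change was −0.18 ± 0.33 (edgeR adjusted p = 0.655). It was called lower without the second drug library (−0.82, adjusted p = 0.00775) and under library size alone (−1.04, 0.0311), and was 0.25 without the first. CPSF7, the paralog that can take the place of CPSF6, read 112 and 105 CPM with DMSO and 127 and 122 CPM with the drug, a log2 fold change of 0.19 ± 0.18 that was not called (edgeR adjusted p = 0.351) and that was −0.68 with a call under library size alone (0.00898).

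CFIIm gave the largest response. PCF11, which binds the C-terminal domain of RNA polymerase II and acts in termination, lies at chr11:83156988-83187451 on the plus strand with 15 introns. It read 44.8 and 50.5 CPM with DMSO and 1079 and 662 CPM with pladienolide B. The other 4 libraries lay between 35.3 and 50.4 CPM, so the drug libraries were above all 6 by a wide margin, with the first the higher. The log2 fold change was 4.19 ± 0.33 with an interval of 3.44 to 4.95, an 18.3-fold higher level (edgeR adjusted p = 3.01e-05), at the 97.1 percentile of all tested genes. The first drug library held 28284 PCF11 reads, the highest count of any member in any library. An antisense gene, PCF11-AS1, covers 15.2% of the exonic length of PCF11, but its mean level was 0.298 CPM.

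CLP1, the RNA kinase that partners PCF11 in CFIIm, moved with it. It read 17.2 and 16.9 CPM with DMSO and 347 and 269 CPM with pladienolide B, a log2 fold change of 4.18 ± 0.23 (edgeR adjusted p = 1.75e-05). The ratio of PCF11 to CLP1 in TPM was 0.616 to 0.837 without drug and 0.770 and 0.623 with it, inside the range of the other 6. By read counts the ratio in the second drug library, 15563 to 6313, was slightly below that range. The lowest of the other 6 by counts was SF3B2 siRNA 1, at 2464 to 973. By contrast, the ratio of PCF11 to CPSF3 went from 0.406 to 0.585 without drug to 58.5 and 40.3 with it. The partner pairs were set side by side with their values known.

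**Figure D2:**
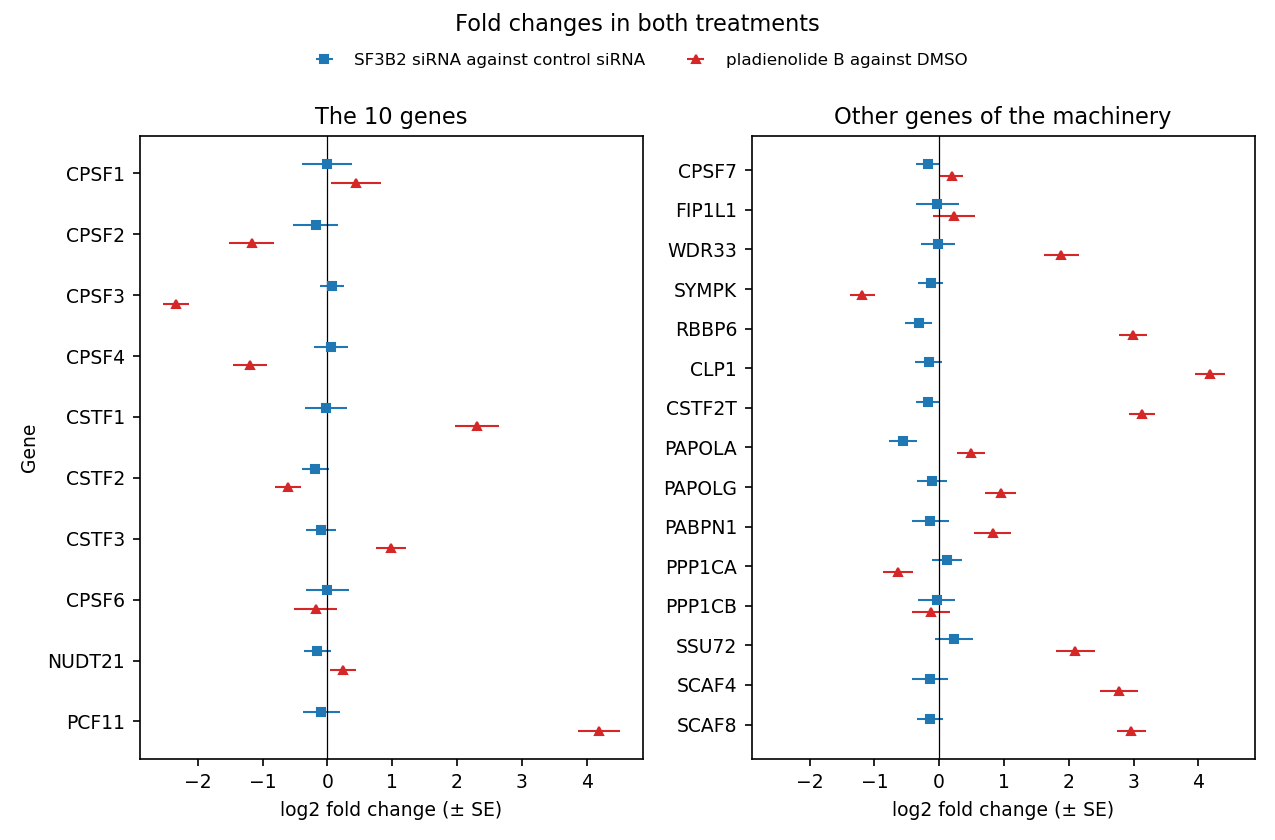
Log2 fold changes of the 10 members and of the other cleavage and polyadenylation genes, for pladienolide B against DMSO and for SF3B2 siRNA against control siRNA, as points with bars of 1 SE from the edgeR fit, a row per gene. PCF11 and CLP1 lie near 4.19 and 4.18 with the drug and CPSF3 at −2.34, while the siRNA values of the members stay between −0.18 and 0.07.

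The drug therefore reordered the 10 genes per length. With pladienolide B the highest were PCF11 at 158 ± 30.1 TPM, CPSF1 at 103 ± 73.6 TPM and CSTF1 at 100.3 ± 70.6 TPM, and the ranges of these neighbours overlapped. CSTF3 at 39.6 ± 8.85 TPM and NUDT21 at 24.8 ± 7.84 TPM followed without overlap. CPSF6, CPSF4 and CSTF2 lay between 11.7 and 6.56 TPM with each overlapping the next, and CPSF3 at 3.22 ± 0.232 TPM and CPSF2 at 2.56 ± 1.71 TPM were last. The summed TPM of the 10 genes was 360 and 556 with the drug. TPM and CPM can differ in direction, and their gap was not the same for each gene. From the first DMSO to the first drug library, CSTF3 went from 17.6 to 33.3 TPM and from 13.9 to 32.0 CPM. CPSF3 went from 31.9 to 3.06 TPM and from 29.0 to 5.95 CPM. A constant per library with 1 fixed length per gene cannot give this. The lengths behind the deposited TPM are not given in the sources. From DMSO to drug, mean NUDT21 went from 39.3 to 24.8 TPM but from 66.9 to 79.3 CPM. Mean CPSF1 went from 138 to 103 TPM but from 242 to 329 CPM. As a share of the summed TPM of the 10 genes, PCF11 was 3.28% to 4.61% in the 6 libraries without drug and 49.7% and 24.6% with it. The share of CPSF1 went from 36.0% to 45.2% without drug to 14.1% and 27.8%. CPSF3 had 7.13% to 9.09% without drug and 0.850% and 0.610% with it, and CPSF2 had 2.26% to 3.02% and then 0.375% and 0.679%. CSTF1 had 6.59% to 9.22% and then 13.99% and 27.0%. These shares do not depend on scaling between libraries, but they do depend on the lengths used for TPM. They also sum to a fixed whole, so a rise of PCF11 lowers the others.

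**Figure D3:**
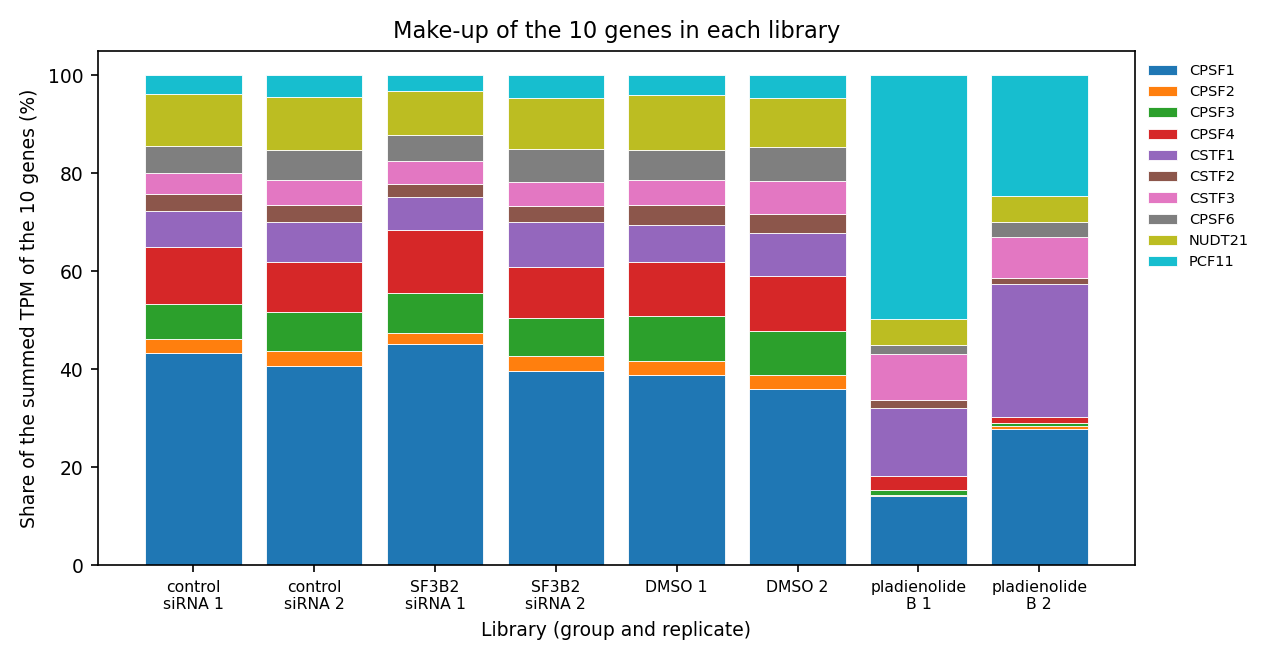
Share of each of the 10 genes in their summed TPM, in percent, with a stacked bar per library. PCF11 takes 49.7% and 24.6% in the drug libraries against 3.28% to 4.61% in the other 6, and CPSF3 is under 1% in both.

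Ratios of TPM within a complex set its subunits against each other, and they too depend on the lengths used for TPM. CSTF1 to CSTF2 was 1.84 to 2.88 without drug and 8.59 and 20.7 with pladienolide B, and CSTF3 to CSTF2 was 1.16 to 1.71 and then 5.68 and 6.32, so both partners gained on the RNA-binding subunit. CSTF1 to CSTF3 in TPM was 1.34 to 1.86 without drug, and the drug libraries divided, 1.51 inside that range and 3.28 above it. By CPM both drug libraries were above the range. The first read 126 for CSTF1 and 32.0 for CSTF3. Control siRNA 1, with the highest such ratio without drug, read 38.0 and 12.6 CPM. The 2 measures thus disagree for the first drug library. The nuclease pair, CPSF3 to CPSF2, was 2.55 to 3.57 without drug and 2.27 and 0.897 with it, below the range in both libraries. NUDT21 to CPSF6 was 1.46 to 1.90 without drug and 2.93 and 1.81 with it, and only the first drug library left the range.

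The drug response differed from the siRNA response for 5 of 10 members in the test of the difference itself, which shares no library between its 2 contrasts. The edgeR difference, drug log2 fold change minus siRNA log2 fold change, was higher for PCF11 (4.28, adjusted p = 0.000216), CSTF1 (2.33, 0.00378) and CSTF3 (1.08, 0.0252). It was lower for CPSF3 (−2.41, 0.000329) and CPSF4 (−1.25, 0.0216). PCF11, CSTF1 and CPSF3 were called in all 14 alternatives run for this test. CPSF4 lost its call in 5 of 14, without either control siRNA library, the first SF3B2 siRNA library or either DMSO library (edgeR adjusted p from 0.0587 to 0.0865). CSTF3 lost it in 6 of 14, without either control siRNA library, either SF3B2 siRNA library or the first DMSO library (edgeR adjusted p from 0.0526 to 0.121), and under library size alone, where its value was 0.19 (0.667). Over all genes 53.7% were called in this test, 25.2% higher and 28.5% lower. CPSF2 (−0.99, edgeR adjusted p = 0.124) and CSTF2 (−0.42, 0.242), called against DMSO, were not called in it. The number of members called in this test changed when single libraries were left out, and so did the number of all genes called. The arms also differ in agent, duration and transfection, which cannot be told apart here.

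Of 15 other cleavage and polyadenylation genes, 9 were called higher with pladienolide B and 2 lower, with a median log2 fold change of 0.95, beside 68% of all tested genes called, 32.5% higher and 35.5% lower, and a median of −0.11. The counts of the lists that follow stand against the same shares. CLP1 was the highest and SYMPK, the scaffold that links CPSF and CstF, the lowest at −1.19 ± 0.19 (edgeR adjusted p = 0.000898). Among those chosen after their values were seen, WDR33, which reads the polyadenylation signal beside CPSF4, had a log2 fold change of 1.88 and RBBP6, which activates the nuclease, of 2.99, both called. The 2 signal readers, CPSF4 and WDR33, thus had opposite signs. Termination genes gave 7 higher and 2 lower of 9, with a median of 1.60, PPP1R10 at 3.53 and TTF2 at −2.79 being the extremes. Genes of the U1 snRNP, which binds 5′ splice sites and restrains premature polyadenylation, gave 7 higher and 0 lower of 8, with a median of 1.70, from LUC7L2 at 2.73 to SNRPA at 0.51, which was not called. Integrator, the complex that cuts small nuclear RNAs, gave 6 higher and 5 lower of 14 measured, with a median of −0.32, between INTS5 at 2.93 and INTS8 at −2.87. The 6 histone 3′ end genes gave 1 higher (ZNF473, 2.63) and 1 lower (NPAT, −1.93). With SF3B2 siRNA 0 genes of these lists were called by edgeR, and at an unadjusted p under 0.05 there was 1 in the polyadenylation list and 1 in the termination list.

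Scaling sets how many of these responses read as higher. Library size alone put the median of all tested genes at −0.97 with the drug, against −0.11 as reported, and called 3313 genes higher and 8446 lower in place of 5358 and 5854. Under it the other polyadenylation list gave 7 higher and 4 lower, the termination list 6 and 2, Integrator 3 and 8 and the U1 snRNP list 5 and 0. PCF11 (3.31 to 4.49), CSTF1 (1.45 to 2.75), CPSF3 (−3.21 to −2.18) and CPSF4 (−2.07 to −0.94) kept their direction and were called under all 15 alternatives.

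**Figure D4:**
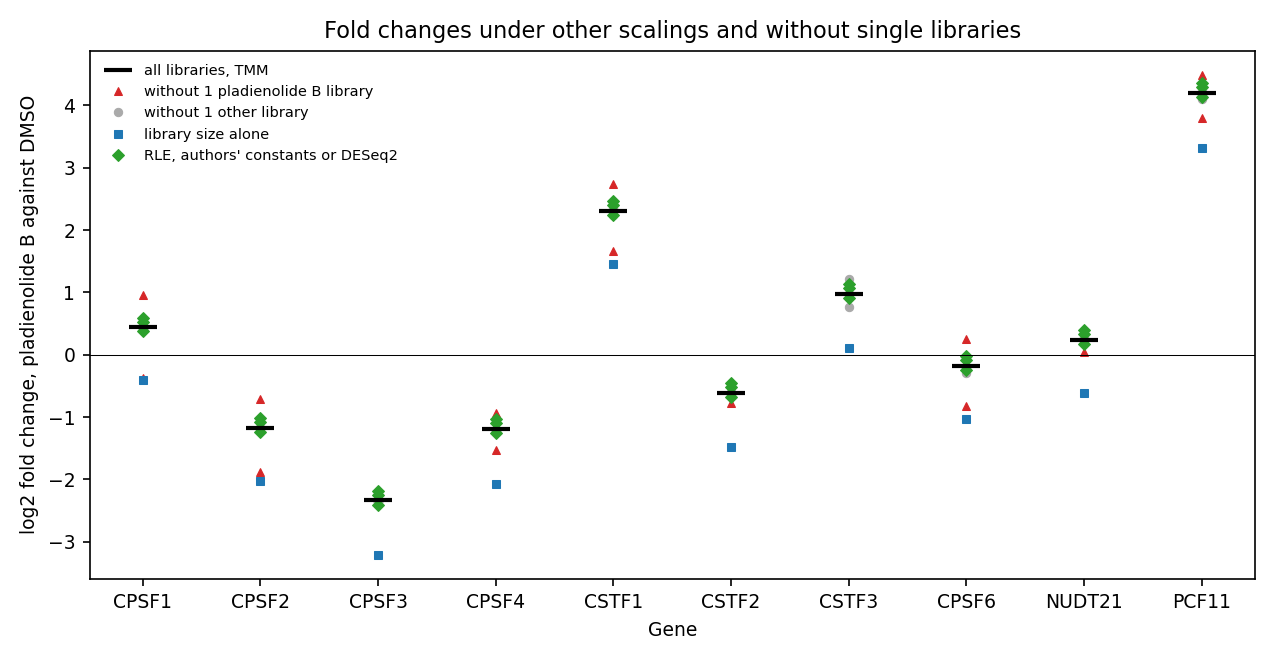
Log2 fold change of each of the 10 genes with pladienolide B against DMSO, as a black bar for the value reported, triangles and circles for fits without 1 library, squares for library size alone and diamonds for the other scalings and DESeq2. PCF11 ranges from 3.31 to 4.49 and CPSF3 from −3.21 to −2.18, whereas CPSF1, CPSF6 and NUDT21 cross 0.

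The members were set beside genes with the same number of introns, pladienolide B being a blocker of intron removal. Over 12828 protein-coding genes the median log2 fold change with the drug went from 1.53 for the 346 intronless genes to −0.78 for the 3197 genes with 11 to 20 introns and −1.02 for the 1561 with more than 20. CSTF2T, with 0 introns, is one of the 64.2% of intronless genes called higher. CPSF3 and CPSF2, with 17 and 15 introns, are among the 48.2% called lower in the class of 11 to 20 introns. PCF11 also has 15 introns, in a class of which 23.1% was called higher, and among 1622 genes within 2 introns of it, whose median was −0.76, it stood at the 99.4 percentile. CSTF3, with 20 introns, stood at the 83.7 percentile of 965 such genes, CSTF1, with 5, at the 88.2 percentile of 4344, and CPSF3 at the 20.1 percentile of 1258. Among genes within 2 introns of each, CPSF1 stood at the 78.4 percentile, NUDT21 at 59.9, CPSF6 at 56.4 and CSTF2 at 51.8. CPSF2 stood at 40.4 and CPSF4 at 34.5. The members thus lay both above and below the middle of genes of like intron number, several of them near it.

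**Figure D5:**
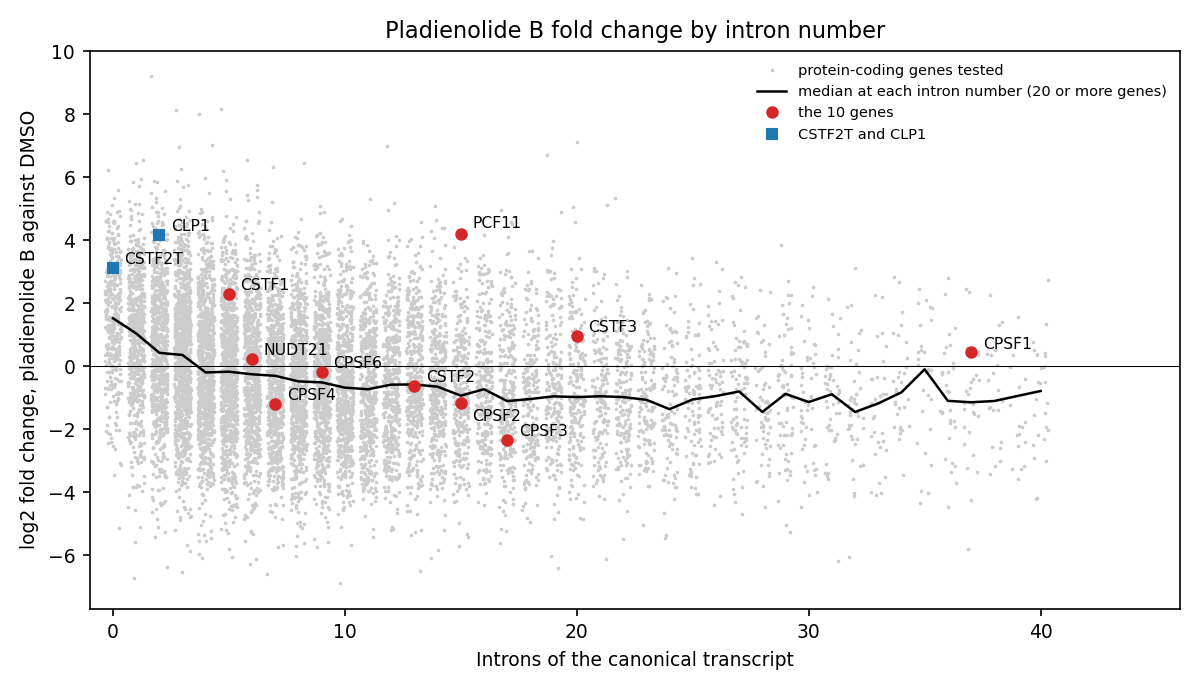
Log2 fold change with pladienolide B against DMSO by number of introns of the canonical transcript, with grey points for protein-coding genes of up to 40 introns, a line for the median at each intron number held by 20 or more genes, circles for the 10 members and squares for CSTF2T and CLP1. The median is 1.53 at 0 introns and below 0 from 4 introns on, and PCF11 with 15 introns lies at 4.19, far above the line.

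Across the 8 libraries, the gene whose centred log2 CPM was nearest to that of PCF11 was EPC1, a subunit of the NuA4 histone acetyltransferase, at a root mean square difference of 0.0754. For CPSF3 it was MRPS36 (0.0538), for CSTF1 DNAJC25 (0.0829), for CSTF3 SAT1 (0.100) and for NUDT21 SUPT16H (0.0444). CPSF1 was nearest to BCL7B (0.0786), CPSF2 to USP4 (0.0584), CSTF2 to BRMS1L (0.0734) and CPSF6 to SS18L1 (0.0734). Of 14260 genes compared, none of these nearest genes was another of the 10 members, and the likeness rests on 4 groups of 2 libraries.

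The authors' deposited table gave the same 7 members at an adjusted p under 0.05 for the drug. The share of all genes under that threshold in the authors' test was not counted. In the edgeR fit it was 68% of tested genes, so the 7 say little about the members as a set. In the authors' deposited table the signed fold of PCF11 was 17.5 (adjusted p = 2.87e-25), that of CSTF1 4.74 (3.30e-09), that of CSTF3 1.88 (0.00854) and that of CPSF3 −5.29 (1.16e-12). For CSTF2 the authors' deposited table gave −1.60 with an adjusted p of 0.0444, nearest to the threshold of the 7.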

How the data were processed

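The 8 libraries, 4 groups of 2, were read from 1 table the authors deposited, which holds a whole-number read count per gene and library. The authors also deposited TPM per library, used for levels between genes, and log2 values scaled with 1 constant per library, used as the authors' scaling alternative. Their own comparisons are a deposited score (a signed fold change) with an adjusted p-value, from a test that no header names. Tools listed in the submitters' processing notes were Trimmomatic 0.38, HISAT2 2.10, Bowtie2 2.3.5.1 and edgeR, with GRCh38. Which program counted reads, with what annotation and strand setting, the sources do not say. Genes at 0 in any library are not listed (lowest count 1), and 8 FPKM columns and 6 columns of group means were not used.

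Counts were fitted in R 4.3.3 with edgeR 4.0.16 (limma 3.58.1) quasi-likelihood tests with robust dispersion and trimmed mean scaling. All 8 libraries entered 1 fit with 4 residual degrees of freedom, over 16488 genes that passed a minimum count of 10, and a gene was called at a two-sided Benjamini-Hochberg adjusted p under 0.05. All 10 members passed the filter. Standard errors and 95% intervals come from the same fit. Alternatives were relative log expression scaling, library size alone, the authors' constants, DESeq2 1.42.0, no filter, a replicate block, only the 2 groups compared, and each library left out. The member counts ran from 133 to 28284 reads, so 2 libraries per group, more than depth, limit precision. Replicates of all groups differed by more than sampling noise.

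Positions and introns are from GENCODE 44 on GRCh38 (15011 tested genes matched) and promoters from RefSeq (16758 genes of the table matched by identifier). Named genes were all members, SF3B2, the highest and lowest of each other list with the drug, CSTF2T, CPSF7 and the nearest gene to each member among those with a mean of at least 1 CPM (that of CPSF4 is not reported here), with WDR33, RBBP6 and PTCD1 added after their values were seen. The members and lists were chosen with earlier results of these data known.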

Additional observations from a re-analysis of the deposited data

How the results depend on the processing

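Of 150 values of the 10 members with pladienolide B, 131 kept their direction and side of the threshold under the 15 alternatives, 11 lost the call, 4 gained one and 4 changed sign. Members called with the drug numbered 4 to 9 when single libraries were left out, and members called in the difference between the drug and siRNA effects 3 to 8. Genes called with SF3B2 siRNA numbered 33 in DESeq2, 1 under relative log expression scaling and 1 with only the 2 groups. That 1 gene was the targeted SF3B2 (edgeR adjusted p = 0.0360 and 0.0288). Its log2 fold change was −2.93 to −2.65 with single libraries left out. Library size alone turned the sign with the drug for CPSF1 (−0.41), NUDT21 (−0.62), CPSF7 (−0.68) and SNRPA (−0.37), in the difference for CPSF1 (−0.42) and NUDT21 (−0.49), with siRNA for CPSF1 (0.012) and CSTF1 (0.0040), and between the controls for CPSF2 (−0.0052) and NUDT21 (−0.031). The siRNA value of CPSF6 was −0.0063 under relative log expression scaling and −0.0075 in DESeq2. The cause was not tested.

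With single libraries left out, signs turned within these ranges of the log2 fold change. With the drug they were −0.37 to 0.95 for CPSF1, −0.82 to 0.25 for CPSF6 and −0.32 to 1.02 for SNRPA, and in the difference −0.37 to 0.96 for CPSF1 and −0.82 to 0.25 for CPSF6. With siRNA they were −0.13 to 0.10 for CPSF1, −0.17 to 0.24 for CPSF4, −0.17 to 0.15 for CPSF6, −0.042 to 0.00060 for CSTF1, −0.25 to 0.061 for CSTF3 and −0.37 to 0.13 for PCF11. Between the controls they were −0.12 to 0.060 for CPSF4, −0.43 to 0.014 for CSTF3, −0.016 to 0.073 for NUDT21 and −0.14 to 0.029 for PCF11.

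Same-numbered libraries of different groups deviated together, with correlations of 0.13 to 0.58 over 6 pairs of groups, but the labels do not say that a number pairs libraries and there are only 2 numbers. The replicate block left 7 members called with the drug, 5 in the difference and 0 with siRNA, and 11736 genes called with the drug. It turned the siRNA value of CPSF6 to −0.014.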
